A study of Mus musculus with 18 samples.

Results

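Differentiation of mouse myoblasts labelled MyoD-null was examined at the level of open chromatin. The members are the ATAC-seq peaks on chromosomes 1 to 19 of 2 lists: 86575 peaks of myocytes and 100192 of myoblasts, together 186767 of the 400124 peaks in the 4 lists of the series. They were chosen by list and chromosome alone, and a peak counted as shared when it met a peak of the other list in at least 1 bp. ATAC-seq uses a transposase that inserts adapters where DNA is accessible, so that piles of reads mark open sites such as promoters and enhancers.

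The myoblasts (3 samples) came from skeletal muscle of MyoD-null mice and are the precursors of muscle fibres. The myocytes (3 samples) carry the same genotype label and had 24 h of myogenic differentiation. Wild-type myoblasts and myocytes, treated alike, supply the other lists. The 3 samples of each group had been pooled before peaks were called, so no value below has an error between replicates and no difference was tested. The labels do not give the null allele, the age of the mice or how the cells were purified. In pooled bulk samples, fewer cells with an open site and less opening per cell cannot be told apart.

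MyoD is a basic helix-loop-helix transcription factor that binds E-box sequences at muscle genes and can open chromatin that other factors do not reach. In myoblasts that lack it, the related factor Myf5 takes over part of its role, and such cells are known to proliferate longer and to differentiate poorly. If the labels are right, comparing their myocytes with their myoblasts thus asks which sites open or close when differentiation is induced without MyoD.

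The genotype of the myocytes is uncertain. Peak names in the myocyte list labelled MyoD-null read WT-DM, and those in the myocyte list labelled wild type read MKO-DM, MKO being the code of the MyoD-null samples. The myoblast lists, whose names match their labels, allow a check. At a −log10 q of 20 or higher, 11 peaks were present in wild-type and absent from MyoD-null myoblasts. All 11 were listed in the myocytes labelled MyoD-null and 3 in those labelled wild type. At 15 or higher there were 41 such peaks, of which 13 stood only in the myocytes labelled MyoD-null and 2 only in those labelled wild type. Conversely, of 39 peaks specific to MyoD-null myoblasts at that limit, 1 stood only in the myocytes labelled MyoD-null and 11 only in those labelled wild type. At a limit of 15 most of these peaks stood in both myocyte lists, 24 of the 41 and 21 of the 39. Those in only 1 myocyte list mostly followed the peak names and not the labels. For peaks specific to MyoD-null myoblasts, that is also the direction of the longer myocyte list, labelled wild type. At 20 only peaks specific to wild-type myoblasts were left, and they too followed the peak names. At a −log10 q of 10 or higher the 519 wild-type peaks split almost evenly, with 81 only in the list labelled MyoD-null and 91 only in the other, which is the longer list. Of 780 peaks specific to MyoD-null myoblasts at that limit, 92 stood only in the list labelled MyoD-null and 203 only in the other. At 5 or higher the longer list, labelled wild type, held more of both kinds. Of 7078 peaks specific to wild-type myoblasts, 820 stood only in the list labelled MyoD-null and 1586 only in that labelled wild type, which is the direction of the labels. Of 10295 specific to MyoD-null myoblasts, the numbers were 887 and 2394. The limits of this check were set after the values were seen. Over all its peaks, the myocyte list labelled MyoD-null overlapped MyoD-null myoblasts in 83.96% and wild-type myoblasts in 84.6% of cases. Stage and genotype can therefore not be told apart in what follows, and the lists are called by their labels. Peak names begin with the same run-like code in both kinds of myocytes and not in myoblasts, so stage and whatever that code stands for cannot be told apart either.

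Depth differed between the lists. The summit of every peak gave back a whole number of reads (within 0.01) from its deposited fold enrichment and p-value, and the genome-wide background was 6.34 reads in the myocytes and 8.54 in the myoblasts. Over that background, the weakest listed summit had 17 reads in myocytes and 21 in myoblasts. The fold enrichment used here is the authors' value, the reads at the summit over the local background. Absence from a list means only that a site was not detected with these reads, not that its chromatin was closed.

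Most open sites were common to both stages. Of the myocyte peaks, 72684 met a myoblast peak and 13891, or 16.0% (95% Wilson interval 15.8 to 16.3), did not. These are called myocyte-only. Of the myoblast peaks, 75306 met a myocyte peak and 24886, or 24.8% (24.6 to 25.1), did not, and are called myoblast-only. Myocyte-only peaks covered 4.62 Mb, or 9.07% of the length of their list, and myoblast-only peaks 7.45 Mb, or 14.8%. Intervals cover counting error only. The surplus of myoblast-only peaks goes with the longer myoblast list. With the myoblast list cut by −log10 p to the length of the myocyte list, 18098 myocyte peaks (20.9%) and 16077 myoblast peaks (18.6%) were unshared, so the order of the counts turned. It also turned with both lists limited to a fold of 5 or higher. There 12838 of 34303 myocyte peaks (37.4%) and 2619 of 24140 myoblast peaks (10.8%) were unshared. Folds were higher in myocytes at 72.9% of the regions with 1 peak of each list, so a common fold limit favours this turn.

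Unshared peaks were concentrated among weak sites. The median summit had 29 reads in myocyte-only peaks and 52 in shared myocyte peaks. In myoblasts the medians were 33 and 55 reads. Myocyte-only peaks had a median width of 298 bp against 536 bp for shared peaks, and myoblast-only peaks 273 bp against 467 bp. Of peaks with a −log10 q below 5, 46.5% (45.3 to 47.7) of the myocyte and 66.3% (65.3 to 67.3) of the myoblast peaks were unshared. Between 10 and 15 the shares were 15.4% and 17.8%. Between 20 and 30 they were 2.48% and 1.17%, the myocyte share being the higher one. At 50 or higher, 6 of 11214 myocyte peaks (0.0535%, 0.0245 to 0.117) and 0 of 7778 myoblast peaks (upper limit 0.0494%) were unshared.

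**Figure D1:**
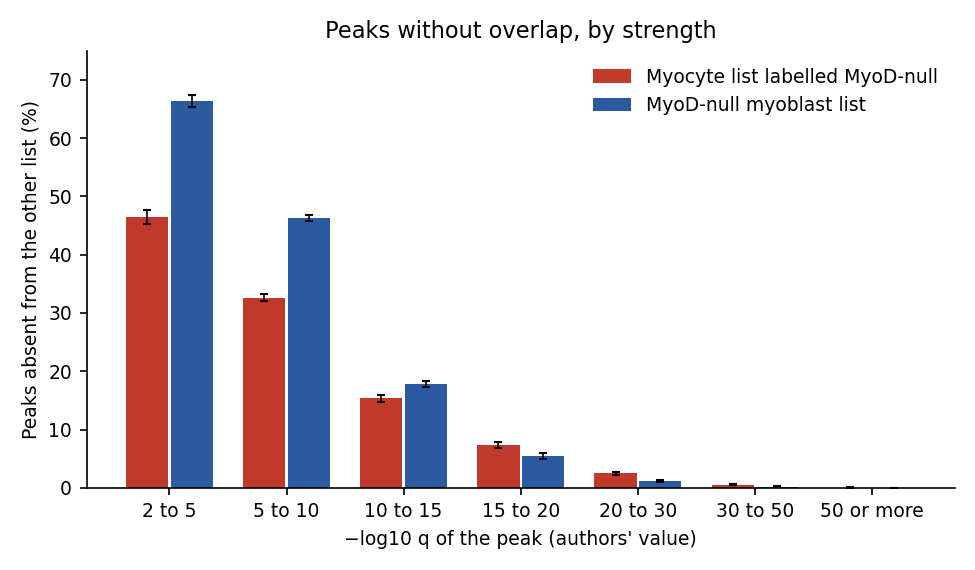
Share of peaks absent from the other list (percent, vertical axis) in classes of the authors' −log10 q (horizontal axis), for the myocyte list labelled MyoD-null and the MyoD-null myoblast list; bars carry 95% Wilson intervals. Myoblast peaks were unshared more often below 15 (66.3% against 46.5% in the lowest class), and myocyte peaks from 15 upwards.

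Whether the other list could have shown the unshared peaks was estimated from their reads. Each fold was moved by the median ratio of regions found in both lists and set against the weakest p-value of the other list. On this scale all 24886 myoblast-only peaks and 13870 of the 13891 myocyte-only peaks would have been listed. So would all 75306 shared myoblast and 72667 of 72684 shared myocyte peaks, so this step could hardly leave a peak out. The reads of unshared peaks come from the list in which they are present. Their choice thus favours high values, and these counts are a description only. With the lower 95% Poisson bound of their reads in place of the reads, 15301 myoblast-only peaks (61.5%) and 6063 myocyte-only peaks (43.6%) still passed this step. The remaining peaks lie within counting error of the limit. The bound was met by 92.9% of shared myoblast and 84.4% of shared myocyte peaks. It rests on the same selected reads and on 1 median log2 ratio of 0.17 for all peaks. That median was 0.10 at the weakest regions (geometric mean of the 2 folds 1.62 to 3.39) and 0.23 at those of 4.90 to 6.27. Unshared peaks were mostly weak, so these counts and their difference between the lists are a description only.

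The lists labelled wild type were not used to choose these peaks and show where else they were listed. Of the myocyte-only peaks, 57.1% (56.2 to 57.9) were listed in the myocytes labelled wild type and 29.3% (28.6 to 30.1) in wild-type myoblasts. Of the myoblast-only peaks, 42.3% (41.7 to 42.9) were listed in the myocytes labelled wild type and 55.6% (55.0 to 56.2) in wild-type myoblasts. Each kind of peak was thus found more often in the other list of its own stage. This order follows in part from the choice, since each kind was picked as absent from a list of the other stage. Shared peaks were listed in 92.5% to 95.1% of cases, and they were stronger. The largest group of myocyte-only peaks, 5066 or 36.5%, was listed in the myocytes under either label and in neither myoblast list. Another 4749 (34.2%) were in no other list, 2860 (20.6%) in both lists labelled wild type and 1216 (8.75%) in wild-type myoblasts alone. Among the myoblast-only peaks, 7690 (30.9%) were in no other list and 7162 (28.8%) in both lists labelled wild type. A further 6677 (26.8%) were in both myoblast lists and in neither myocyte list, and 3357 (13.5%) in the myocytes labelled wild type alone.

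**Figure D2:**
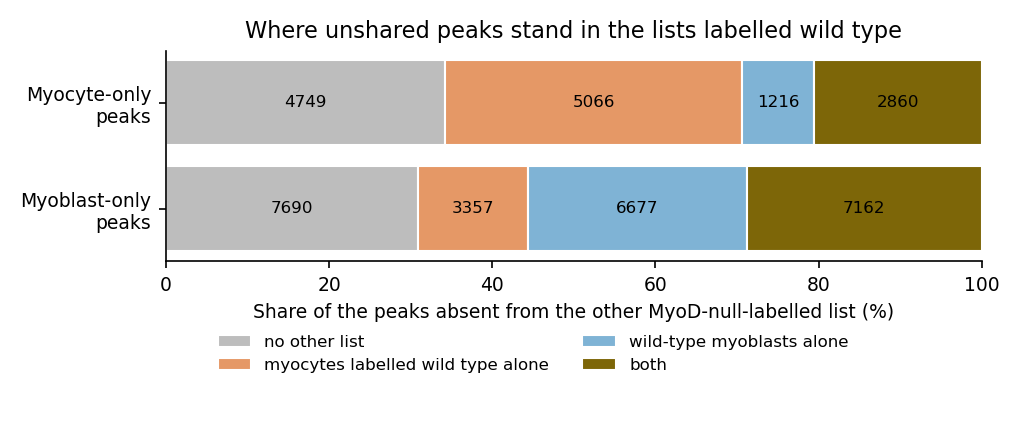
Myocyte-only and myoblast-only peaks divided by whether they were listed in the myocytes labelled wild type, in wild-type myoblasts, in both or in neither; bar length is the share in percent and the printed number the count of peaks. The class in the other myocyte list alone holds 5066 myocyte-only peaks and the class in the other myoblast list alone 6677 myoblast-only peaks.

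Strong unshared peaks were few. All 159 myoblast-only peaks with a −log10 q of 20 or higher were also listed in wild-type myoblasts, and 121 of them in the myocytes labelled wild type. Shared myoblast peaks of that strength were likewise listed in wild-type myoblasts in 100% of cases, so the myoblast-only peaks did not stand apart in this. Of 34257 myocyte peaks at that strength, 345 were myocyte-only. Among these 345, 279 were listed in the other myocytes, 211 in wild-type myoblasts and 29 in neither. In the class from 20 to 30, 80.7% of myocyte-only peaks were listed in the other myocytes and 56.7% in wild-type myoblasts. For shared myocyte peaks of that class the shares were 98.1% and 99.2%. At 30 or higher, 70 of 23188 myocyte peaks were myocyte-only. Of those 70, 57 were listed in the other myocytes and 55 in wild-type myoblasts, with 45 in both. In the class from 30 to 50, 54 of 64 myocyte-only peaks (84.4%) were listed in the other myocytes and 50 (78.1%) in wild-type myoblasts. These are lower shares than among shared myocyte peaks of that class, with 99.5% and 99.9%. The lower shares in wild-type myoblasts follow in part from the choice of peaks absent from MyoD-null myoblasts.

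The 8 myocyte-only peaks with the highest fold illustrate the classes. The strongest, at chromosome 6, 51917429 to 51918127 (mm9), had 81 reads and a fold of 11.2, and 67 reads and a fold of 10.8 in the other myocytes. It was listed in neither myoblast group. At chromosome 4, 88409317 to 88409884, 113 reads gave a fold of 10.9, and wild-type myoblasts had 82 reads and 9.04. Its neighbour at chromosome 4, 88403047 to 88404017, had 135 reads (9.04), and 124 reads (9.80) in wild-type myoblasts. These 2 sites and chromosome 5, 105000361 to 105001102 (101 reads, fold 10.6, against 69 reads and 7.63 in wild-type myoblasts), were missing from both MyoD-null myoblasts and the myocytes labelled wild type. All 3 were listed only where the peak names read wild type. Listing in these myocytes and absence from MyoD-null myoblasts were fixed by the choice. The 8 strongest myoblast-only peaks do not mirror this, as all 8 were listed in wild-type myoblasts.

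The site at chromosome 9, 104884307 to 104884918, was listed in these myocytes alone, with 75 reads and a fold of 10.4. The other 3 were listed everywhere but in MyoD-null myoblasts. At chromosome 10, 26969341 to 26970194, the folds were 9.40 in the myocytes labelled MyoD-null, 4.93 in those labelled wild type and 2.94 in wild-type myoblasts. Chromosome 14, 62375776 to 62376831, had 9.40, 11.3 and 7.58. Chromosome 6, 56285894 to 56286479, had 9.27, 12.7 and 4.25. In all, 6 of the 8 sites were listed in wild-type myoblasts and 4 in the myocytes labelled wild type.

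The 8 strongest myoblast-only peaks had folds of 7.02 to 8.49 and all were listed in wild-type myoblasts, at lower folds of 3.81 to 6.86. At chromosome 7, 70947561 to 70948134, MyoD-null myoblasts had 80 reads (8.49) and wild-type myoblasts 44 (4.90), and neither myocyte list held it. Chromosome 17, 36621607 to 36621952, showed the same pattern with 74 and 49 reads. So did chromosome 3, 123165211 to 123165560, with 68 and 45 reads. These 3 were listed in both myoblast groups only.

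The other 5 were also listed in the myocytes labelled wild type. Chromosome 4, 53999372 to 53999802, had a fold of 7.13 in MyoD-null myoblasts, 5.12 in wild-type myoblasts and 9.86 in those myocytes. Chromosome 7, 37170323 to 37170908, had 7.02, 6.10 and 10.1. Chromosome 9, 119615858 to 119616182, had 7.44, 5.99 and 7.95. In these 3 the myocytes labelled wild type had the highest fold. At chromosome 9, 113920323 to 113920639, they had 5.46 against 7.05 in MyoD-null myoblasts, and at chromosome 14, 80329174 to 80329619, 3.50 against 7.96.

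Regions present in both lists were compared by their fold, using the 69237 regions where 1 peak of each list met 1 of the other. The median fold was 4.77 in myocytes and 4.19 in myoblasts, and 72.9% of the regions had the higher fold in myocytes. The median log2 ratio of myocyte to myoblast fold was 0.17 (a ratio of 1.12), and the quartiles were -0.02 and 0.37. Changes are therefore given relative to this median. The SD over regions was 0.31, against 0.19 for MyoD-null over wild-type myoblasts at 65732 of these regions. Relative to the median, 2528 regions or 3.65% were over 1.5-fold higher in myocytes and 2029 or 2.93% over 1.5-fold lower. Of these, 188 and 99 differed by over 2-fold. Folds divide by a local background. With reads at the summit set over the genome-wide background in its place, 3307 regions were higher and 5639 lower, so the share of higher regions moved from 55.5% to 37.0%.

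**Figure D3:**
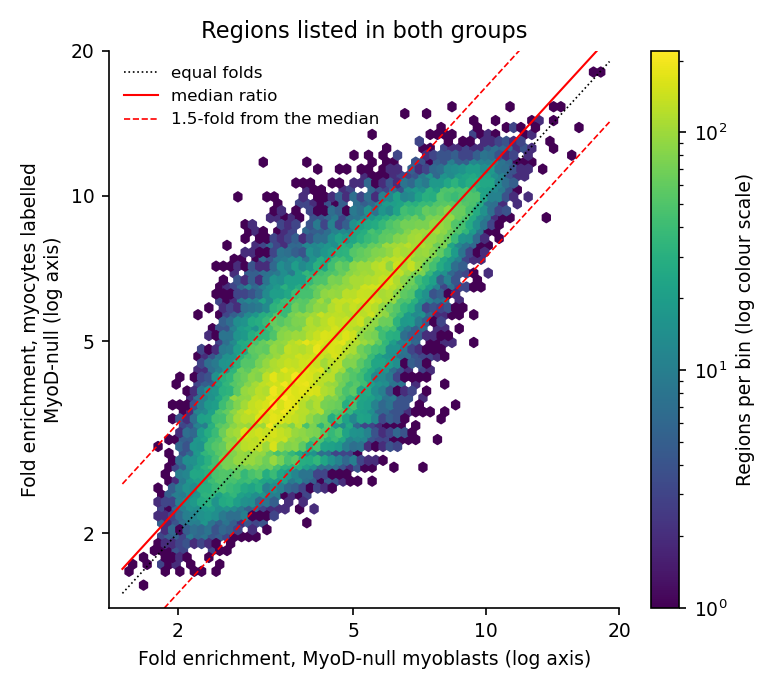
Fold enrichment in MyoD-null myoblasts (horizontal, log axis) and in myocytes labelled MyoD-null (vertical, log axis) at 69237 regions with 1 peak in each list; colour gives the number of regions per bin. The solid line marks the median ratio of 1.12, and 2528 regions lie above and 2029 below the dashed lines at 1.5-fold from it.

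Peaks were also wider in myocytes. At the same regions the median width was 521 bp in myocytes and 467 bp in myoblasts, and 60.9% of the regions were wider in myocytes. Summits lay a median of 44 bp apart. Further, 2862 of 86575 myocyte peaks each overlapped 2 or more myoblast peaks, whereas 319 of 100192 myoblast peaks overlapped 2 or more myocyte peaks. The myoblast list was also the longer one, and the part of its length in these counts was not tested. The lower background in myocytes moves with these widths, and its part in them was not tested.

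Changes of strength recurred in part in the lists labelled wild type, which hold no sample of this comparison, although their peak names carry the same codes by stage. Of the regions over 1.5-fold higher, 2213 were in all 4 lists, and 1614 of those (72.9%) were also higher than the median in the myocytes labelled wild type over wild-type myoblasts. Past 1.5-fold they numbered 519, or 23.5%, against 7.07% of all 61554 such regions, and 82 (3.71%) were past 1.5-fold in the opposite direction, against 5.04%. Of the regions over 1.5-fold lower, 1721 were in all 4 lists and 1027 (59.7%) were lower there too. Past 1.5-fold they numbered 256, or 14.9%, against 5.04% of all regions. Another 153 (8.89%) were past 1.5-fold higher there, also above the 7.07% of all regions. Across the 61554 regions the log2 ratios of both comparisons had a Pearson r of 0.22 and a Spearman rho of 0.23, given as a description, since regions of 1 list share depth and library.

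The 5 regions with the largest increase of fold, among 34070 with a fold of at least 5 in either list, had 24 to 35 reads in MyoD-null myoblasts and 65 to 84 in the myocytes. Chromosome 13, 101364001 to 101364540, had a fold of 11.6 in myocytes and 3.14 in myoblasts (log2 ratio 1.71 relative to the median). Wild-type myoblasts had 6.21 there and the other myocytes 6.84. Chromosome 9, 121062240 to 121062778, had 9.86 and 2.72, with 5.23 in wild-type myoblasts and 9.56 in the other myocytes. Chromosome 8, 11128150 to 11128805, showed a similar difference in both comparisons, with 9.85 against 3.18 here and 10.5 against 3.60 in the lists labelled wild type. At chromosome 7, 136145830 to 136146479, the folds were 8.84 and 2.83, and the other myocytes lacked the peak. Chromosome 19, 46247005 to 46247620, had 7.95 and 2.62, with 3.05 in wild-type myoblasts and 3.98 in the other myocytes. Since the regions were picked in part for a low fold in MyoD-null myoblasts, the higher folds of wild-type myoblasts in all 5 follow in part from that choice.

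The 5 regions with the largest decrease had 19 to 26 reads in the myocytes and 58 to 80 in MyoD-null myoblasts. Chromosome 9, 27283251 to 27283450, had a fold of 2.73 in the myocytes and 7.10 in the myoblasts, while the other myocytes had 11.4. Chromosome 1, 128567207 to 128567416, had 3.68 and 8.38, with 11.0 in the other myocytes. Chromosome 5, 108675340 to 108675621, had 3.13 and 7.86, with 9.55 in the other myocytes. At these 3 regions the 2 myocyte lists stood on opposite sides of the myoblasts. Chromosome 9, 13422643 to 13422844, had 3.41 and 7.96 and was not listed in the other myocytes. Chromosome 15, 61602403 to 61602770, had 2.73 and 6.18, with 5.57 in the other myocytes. Wild-type myoblasts had folds of 4.47 to 6.43 at the 5 regions, each below that of MyoD-null myoblasts, for whose high values the regions were picked in part.

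**Figure D4:**
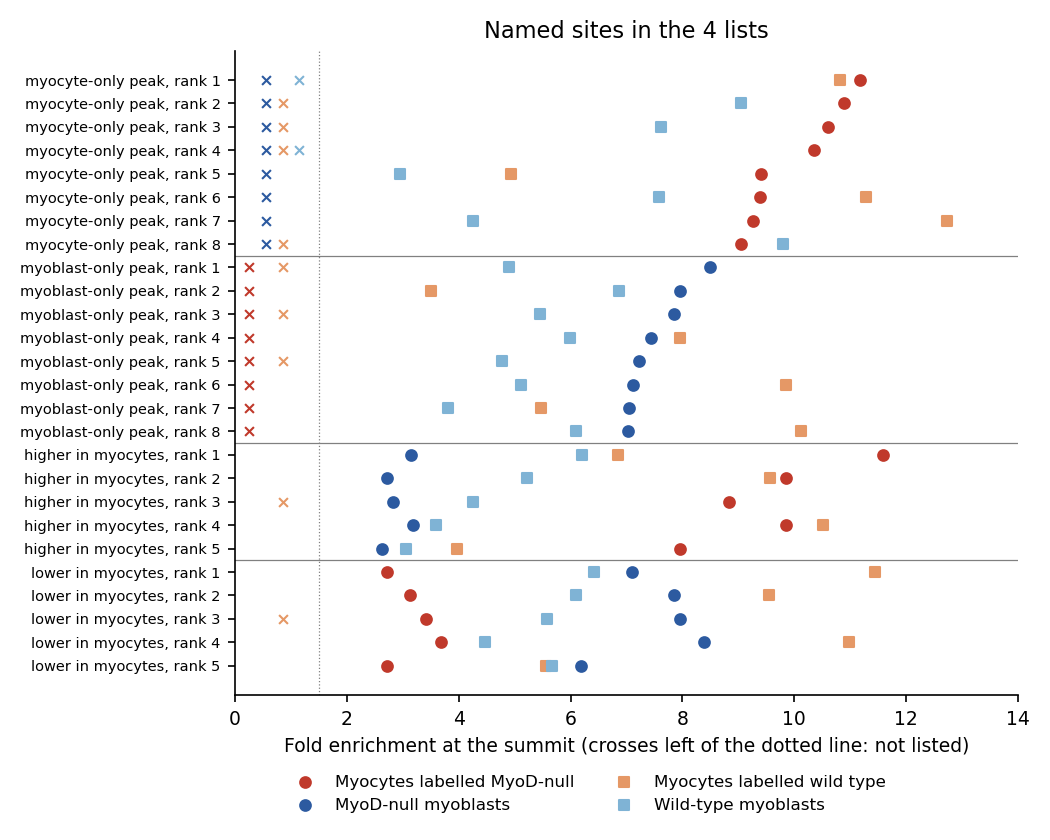
Fold enrichment (horizontal axis) of the 8 strongest myocyte-only and myoblast-only peaks and of the 5 regions with the largest increase and decrease, in the 4 lists; crosses at the left mark lists without a peak. All 8 myoblast-only sites have a point for wild-type myoblasts, against 6 of the 8 myocyte-only sites.

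Along the chromosomes, myoblast-only peaks lay in longer runs than myocyte-only peaks. A run here is a row of neighbouring peaks of 1 kind with no other peak of the 2 lists between them. Runs of 4 or more held 2851 myoblast-only peaks (11.5% of them, in 592 runs) and 215 myocyte-only peaks (1.55%, in 48 runs). Single peaks made up 51.0% of the myoblast-only and 73.7% of the myocyte-only peaks. The difference in number of unshared peaks favours longer runs in myoblasts, and its part was not tested. The median distance from an unshared peak to the nearest peak of the other list was 6944 bp for myoblast-only and 3780 bp for myocyte-only peaks. Within 500 bp lay 6.73% and 9.29%.

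**Figure D5:**
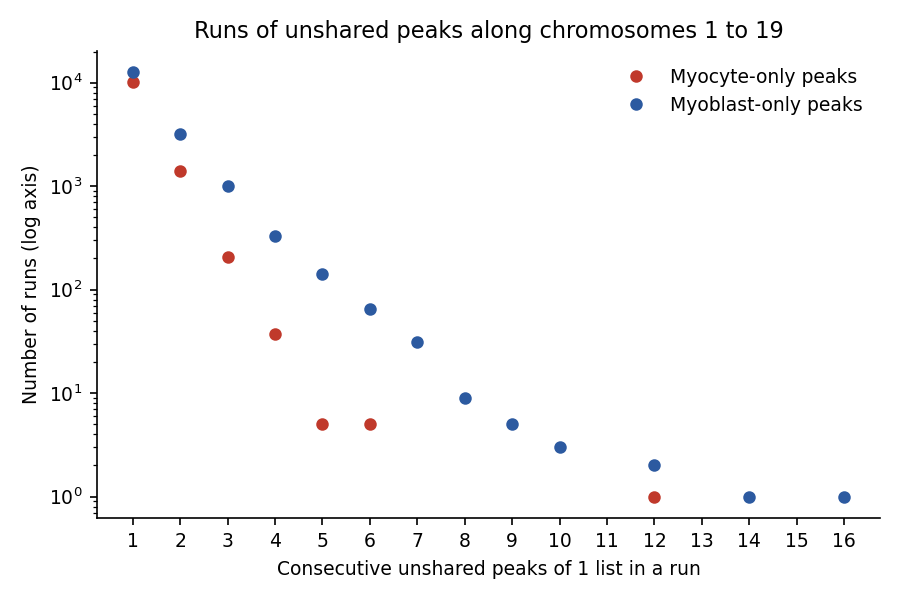
Number of runs (vertical, log axis) by the number of consecutive unshared peaks in them (horizontal axis), for myocyte-only and myoblast-only peaks. The longest runs had 16 myoblast-only and 12 myocyte-only peaks.

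The longest runs were chosen after their values were seen. On chromosome 7, from 149329499 to 149459986, 16 myoblast-only peaks in a row had folds of 2.61 to 5.03, and the myocytes had no peak there. Wild-type myoblasts had 12 peaks in that interval and the myocytes labelled wild type 3. On chromosome 17, from 13370656 to 13590626, 14 myoblast-only peaks (folds 2.52 to 6.28) stood beside 7 in wild-type myoblasts and 2 in the other myocytes. The counts in the lists labelled MyoD-null follow from the definition of a run. In the lists not used to choose them, both intervals held fewer peaks in the myocytes labelled wild type than in wild-type myoblasts. The longest myocyte run, on chromosome 6 from 114444758 to 114569670, had 12 peaks with folds of 3.00 to 5.86. MyoD-null myoblasts had no peak in it, wild-type myoblasts 4 and the other myocytes 1. A run of 6 on chromosome 10, from 17084003 to 17238807, met 7 peaks in the other myocytes and 2 in wild-type myoblasts. It was 1 of 5 runs of that length. In 2 others, on chromosome 13 from 5725677 to 5791480 and on chromosome 3 from 59932292 to 60097242, only 1 of the 6 peaks was listed in the other myocytes. Wild-type myoblasts listed 0 and 1 of them.

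In windows of 500 kb, chromosome 12 from 106000001 to 106500000 had the most myoblast-only peaks, 24 of 63. The myocytes labelled MyoD-null had 39 peaks there, those labelled wild type 60 and wild-type myoblasts 56. All windows named here were picked for peaks absent from the other list of the comparison. The low count of that other list follows in part from this choice. Chromosome 17 from 30500001 to 31000000 had 22 of 38, with 19 peaks in the myocytes, 41 in the other myocytes and 34 in wild-type myoblasts. Chromosome 7 from 103500001 to 104000000 also had 22 of 38, with 18, 28 and 27 peaks in the same order. A count of 22 was reached by 8 windows. Myocyte-only peaks were most frequent at chromosome 1 from 165000001 to 165500000, with 20 of 42, where MyoD-null myoblasts had 27 peaks, wild-type myoblasts 31 and the other myocytes 43. The next were chromosome 6 from 115500001 to 116000000, with 18 of 63, and chromosome 7 from 87500001 to 88000000, with 18 of 71.

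By chromosome, the share of myoblast-only peaks ran from 21.9% on chromosome 19 to 27.6% on chromosome 14. The share of myocyte-only peaks ran from 14.2% on chromosome 11 to 17.4% on chromosome 3. Chromosome 11 was low in both directions, with 22.8% of myoblast peaks unshared.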

How the data were processed

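The 4 deposited lists have the narrowPeak layout on build mm9. MACS2 and deepTools were used, without versions, per the submitters' processing notes, and the aligner is not given in the sources used here. Each list stands for 3 pooled samples, since peak names refer to merged alignments with a MAPQ30 tag. The authors' values are the fold enrichment at the summit (a ratio), the −log10 p, the −log10 q and a score of 10 times the latter, as a whole number, deposited per peak. The deposited score was not used. The deposited summit offset served for distances and windows.

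From these, overlaps (bedtools 2.31.1 gave the same counts), 95% Wilson intervals and ratios of fold were computed in Python 3.11.15 with numpy 2.4.6, pandas 2.3.3 and scipy 1.17.1. Figures used matplotlib 3.10.9. Reads at a summit are the number that gives both the deposited fold, (reads + 1) / (background + 1), and the deposited Poisson p-value. On 20000 simulated peaks all 7 known quantities were recovered. Local backgrounds above the genome-wide one were whole steps of 0.02.

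With 1 list per group no test was possible. Sites were named by rule: the 8 strongest unshared peaks per list, the 5 largest fold differences per direction at regions with a fold of at least 5, and the 3 windows of 500 kb with the most unshared peaks per list (ties by share). The comparison, lists and rules were chosen with earlier results of these data known. Gene names supplied here belong to another build, so genes, promoters, motifs, marker genes and Myod1 were not examined.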

Additional observations from a re-analysis of the deposited data

Results flagged for a closer look

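The net of unshared peaks had opposite signs under the 2 genotype labels. The number of myocyte-only peaks less that of myoblast-only peaks was -10995 in the lists labelled MyoD-null and 15390 in those labelled wild type, on chromosomes 1 to 19. The lists differed in length by -13617 and 13333 peaks. The difference between the labels was not tested.

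At 4 of the 10 regions named for a large difference of fold, the direction relative to the median of all regions was opposite in the lists labelled wild type. The regions on chromosome 7 from 136145830 and chromosome 9 from 13422643 had no ratio there, as the other myocytes lacked the peak. Relative to the median, the region on chromosome 13 from 101364001 had a log2 ratio of 1.71 here and -0.21 there. Its ratio there was 0.14 before the median was subtracted, so its fold was higher in myocytes in both comparisons. On the relative scale, the regions on chromosome 9 from 27283251, chromosome 5 from 108675340 and chromosome 1 from 128567207 had -1.55, -1.49 and -1.36 here. They had 0.48, 0.30 and 0.95 there. These regions were picked for their difference in the first comparison, and none of the contrasts was tested.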

How the results depend on the processing

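The number of myocyte-only peaks stayed within 1.5 times the main count of 13891 under 10 of 12 alternatives, and that of myoblast-only peaks (24886) under 9 of 12. These are counts, and the length of the lists also changed under several alternatives. The main shares were 16.0% of myocyte and 24.8% of myoblast peaks. With both lists at a fold of 5 or higher, 2619 of 24140 myoblast peaks (10.8%) were unshared, against 12838 of 34303 myocyte peaks (37.4%). There the myocyte count stayed near the main one, but its share did not. Lists of equal length gave 16077 myoblast-only peaks (18.6%). Without peaks under 300 bp there were 6877 myocyte-only (9.82%) and 9485 myoblast-only peaks (13.2%). With the myocyte list whose names read MKO-DM, 32699 myocyte (29.8%) and 20003 myoblast peaks (19.96%) were unshared. The median log2 ratio at common regions was 0.16 with equal lengths, 0.18 at a −log10 q of 5 or higher, 0.16 with a reciprocal overlap of 50% and 0.30 over the genome-wide background, where 5639 regions were lower. The share of myocyte-only peaks in the other myocytes was 42.7%, 56.1% and 49.1% under the first 3 of these. The share of myoblast-only peaks in wild-type myoblasts was 53.0% at a −log10 q of 5 and 53.1% with reciprocal overlap. The fullest window held 9 myocyte-only and 14 myoblast-only peaks at 100 kb, and 42 myoblast-only peaks at 1 Mb. The genome-wide background for ratios and a limit on the local background were chosen after seeing the data. The causes of these shifts were not tested. No paired analysis was possible because each group is 1 pooled list, which also leaves no replicate to leave out.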

Other observations

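Regions common to both lists were also divided by their neighbours, from the same comparison and with no test. Within 10 kb of a myocyte-only peak alone lay 11001 of them, and their median log2 ratio was -0.01 relative to all regions. Within 10 kb of a myoblast-only peak alone lay 14753, with a median of 0.02. Over the genome-wide background, the same medians were 0.08 and -0.07. By that measure, 58.6% of the former and 43.1% of the latter were above the median of all regions.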
